A study of Homo sapiens with 4 samples.

Results

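Integrins are cell surface receptors built from 1 alpha and 1 beta subunit, and epithelial cells use them to hold on to the basement membrane. The members described here are the 10 subunits ITGA2, ITGA3, ITGA5, ITGA6, ITGAV, ITGB1, ITGB4, ITGB5, ITGB6 and ITGB8, a list of names to which no threshold on a value was applied, drawn up with earlier results of these data known, out of 19729 genes listed for every library. All 10 were listed, 9 were above 0 in at least 1 library, and 5 reached the mean value of 10 that was set for testing. The RNA came from HT-29 cells, an established human colorectal cancer line with a truncated APC protein, which were stably transduced with a lentivirus whose short hairpin RNA (shRNA) is switched on by doxycycline (DOX) and targets APC or, in the control, is non-silencing (NonS). Both conditions received 500 ng/ml DOX for 72 h and were sequenced as biological duplicates I and II, which gives 4 libraries. The comparison asks which transcripts differ once the remaining, truncated APC is silenced, a step that releases β-catenin and raises Wnt target genes in these cells. Each condition is 1 transduced cell population of a single line, so a difference between the populations that is unrelated to APC cannot be told apart from the effect of the shRNA.

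The alpha subunit largely sets which ligand a pair binds. ITGA3 and ITGA6 make laminin receptors, with ITGB1 for ITGA3 and with ITGB1 or ITGB4 for ITGA6, and the pair of ITGA6 and ITGB4 is the core of the hemidesmosome, the anchor between keratin filaments and the basement membrane. ITGA2 pairs with ITGB1 to bind collagen. ITGA5 with ITGB1, and ITGAV with ITGB1, ITGB5, ITGB6 or ITGB8, bind ligands that carry the RGD tripeptide, among them fibronectin, vitronectin and latent TGF-β. In the gut, ITGA6, ITGB4 and the ITGB1 pairs are known from the basal side of the crypt epithelium.

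The deposited values are 1 whole number per gene and library on a scale that the authors' sources used here do not state. They behave like rounded values that were already divided by transcript length and depth, so they are called values here, not read counts, and read depth is unknown. The sum of the values ranged from 398338 to 413595 per library. APC itself had a value of 3 in a single library, NonS I, and of 0 in the 3 others, which is too low to check the labels. The Wnt target genes do check them: all 5 that could be tested (AXIN2, NOTUM, NKD1, SP5 and ASCL2) were higher in the APC shRNA libraries, AXIN2 with 16 and 22 in NonS against 124 and 178. Epithelial markers summed to between 4359 and 5412 in every library, although the intestinal transcription factors CDX1 and CDX2 and the cadherin CDH17 were at 4 or less throughout. Among leukocyte markers PTPRC and CD3E were at 0 in all libraries, and the macrophage and monocyte markers CD68 and CD14 were low, CD68 with 5 and 6 in NonS against 3 and 3 in APC shRNA cells and CD14 with 3 and 4 against 1 and 2. LYZ, a gene that secretory gut cells also use, was at 614 or more in every library. All 8 fibroblast and endothelial markers were at 0. In bulk RNA, fewer cells of a type and less RNA per cell cannot be told apart.

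Differences are given as log2(value + 1), APC shRNA minus NonS, from a limma model fitted to the 5376 genes that averaged 10 or more, and p-values were adjusted over all of them by the method of Benjamini and Hochberg. A gene is called at an adjusted p under 0.05. By this rule 3.7% of all genes tested were lower and 4.33% were higher in the APC shRNA libraries, and the median difference of all genes was 0.03. With the thresholds the study used, a change over 4-fold and an adjusted p under 0.01, 0% of genes were called. None could be, as the smallest adjusted p in limma was 0.0423. Under the other settings described below that kept all 4 libraries, between 0 and 37 genes passed these thresholds. The study itself applied them to DESeq2 results from read counts and reported genes passing in both directions, so this 0% does not bear on its lists. Before adjustment, p was under 0.05 for 1912 genes. Same-numbered libraries deviated together, so a second fit with the replicate number as a block is given where it changes a call.

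ITGA6 was the subunit with the largest difference. Its mRNA was about 4.5-fold lower in APC shRNA cells. In the fit without the block it was the only one of the 5 subunits tested that passed the threshold. The 4 other subunits tested were lower by smaller amounts that did not pass in that fit. The call depends on the fit: with the replicate block ITGA3 passed (adjusted p = 0.0468 in limma) and ITGA6 did not (adjusted p = 0.0561 in limma). All 9 subunits above 0 had a lower mean in the APC shRNA libraries, and none had a higher mean. Among them ITGA2, ITGAV, ITGB6 and ITGB8 were too low to test, and their values overlapped between the conditions. The share of all genes with a lower mean was not worked out, so this count has no background beside it.

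ITGA6 (ENSG00000091409; GRCh38, chr2:172427354-172506282, plus strand) encodes the laminin-binding alpha subunit shared by ITGB4 and ITGB1. Replicates I and II had values of 65 and 74 in NonS cells, against 19 and 12 in APC shRNA cells. Both APC shRNA libraries lay far below both NonS libraries. The means were 69.5 ± 6.36 and 15.5 ± 4.95 (SD, n = 2 each), a 4.48-fold ratio, and the log2 difference was -2.13 with a standard error of 0.26. The adjusted p was 0.0483 in limma, close to the threshold, and the call was lost with the replicate block (adjusted p = 0.0561). It was also lost when any 1 library was left out: the adjusted p was 0.239 without NonS I, 0.214 without NonS II, 0.148 without APC shRNA I and 0.181 without APC shRNA II, with log2 differences between -2.44 and -1.81. No gene in the whole table was called in any of those 4 fits, in which limma gave 1119 to 1330 genes an unadjusted p under 0.05. The exons of ITGA6 share 174, 125 and 52 bases with the opposite-strand genes AC078883.2, ITGA6-AS1 and AC078883.1, and the strand setting of the counting is not given in the sources used here.

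Since ITGA6 and ITGB1 are the subunits whose levels the pairs below turn on, the sequence next to their RefSeq start sites is shown. RefSeq promoter windows (GRCh38.p14) were matched for 8 of the 10 subunits, 13 windows in all, and there was no entry for ITGA3 and ITGB4. Both strands of the 250 bases before each start were searched for the letters CTTTGAT and CTTTGAA, which make up the core of the site bound by the TCF/LEF factors of the Wnt pathway, and for GGGCGG, the GC box. CTTTGAT was in 0 of the 13 windows, against 2.26% of all 35116 windows of that length, and CTTTGAA was in 0 of 13 against 3.8%. At such low shares, 13 windows are too few to tell a lack of these letters from the share of all windows. Sequence farther from the starts was not searched, so the counts do not say whether the genes have TCF/LEF sites elsewhere. The GC box was in 7 of 13, against 42.6% of all windows. ITGA6 has 2 start sites, and of each the longest stretch of the nearest 150 bases that no annotated exon covers is printed, as for the GC-rich start of ITGB1. Sequences read 5′ to 3′ along the gene, and capitals mark GGGCGG or its reverse complement CCGCCC.
ITGA6, upstream start, chr2:172427186-172427335, plus strand: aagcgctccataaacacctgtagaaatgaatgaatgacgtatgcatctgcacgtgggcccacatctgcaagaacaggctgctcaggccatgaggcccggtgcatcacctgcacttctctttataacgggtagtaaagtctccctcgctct
ITGA6, downstream start, chr2:172427471-172427554, plus strand: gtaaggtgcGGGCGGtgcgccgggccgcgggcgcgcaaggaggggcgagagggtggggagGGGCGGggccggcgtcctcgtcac
ITGB1, chr10:32958233-32958380, minus strand: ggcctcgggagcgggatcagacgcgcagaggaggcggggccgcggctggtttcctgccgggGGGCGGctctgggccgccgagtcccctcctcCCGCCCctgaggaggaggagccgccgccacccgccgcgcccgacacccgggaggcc
The upstream ITGA6 stretch has 51.3% GC and no GC box. The downstream ITGA6 stretch, which lies within the annotated gene, has 81.0% GC and 2 GC boxes, and that of ITGB1 has 80.4% and 2. The deposited values are per gene, so they do not say which start was used.

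ITGA3 (ENSG00000005884; chr17:50055968-50090481, plus strand), the alpha subunit of the second laminin receptor, was the next lowest. Its value was 58 and 89 in the NonS replicates and 31 and 44 in the APC shRNA replicates. The conditions did not overlap, but replicate II was above replicate I in both. Means were 73.5 ± 21.9 and 37.5 ± 9.19 (SD, n = 2 each), with a log2 difference of -0.94, a standard error of 0.32 and an adjusted p of 0.149 in limma. With the replicate block the adjusted p was 0.0468, so that ITGA3 was called lower and ITGA6 was not. The call rate is higher in that fit, in which 9.3% of all genes tested were lower.

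ITGB4 (ENSG00000132470; chr17:75721328-75757818, plus strand), the beta subunit that pairs only with ITGA6, was at 62 and 81 in NonS and 45 and 46 in APC shRNA cells. The APC shRNA libraries were nearly equal to each other and both lay below NonS. The log2 difference was -0.63 with a standard error of 0.16, and it missed the threshold in limma without the block (adjusted p = 0.103) and with it (adjusted p = 0.0809). ITGB4 mRNA was thus 1.57-fold lower by the means, against 4.48-fold for its only partner.

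ITGB1 (ENSG00000150093; chr10:32900319-33005792, minus strand) is the beta subunit common to the laminin, collagen and fibronectin receptors. It was at 87 and 72 in NonS and 71 and 47 in APC shRNA libraries. The conditions did not overlap, but NonS II and APC shRNA I were only 1 unit apart. The log2 difference was -0.45 with a standard error of 0.26, and it did not pass in limma (adjusted p = 0.313). It was -0.15 without APC shRNA II and -0.74 without APC shRNA I.

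ITGB5 (ENSG00000082781; chr3:124761948-124901418, minus strand), an RGD-type partner of ITGAV, was at 61 and 81 in NonS and 52 and 66 in APC shRNA libraries. The conditions overlapped, although each APC shRNA library was below the NonS library of the same number. The log2 difference was -0.26 with a standard error of 0.22 (adjusted p = 0.443 in limma). It was closer to 0 without NonS II (-0.06) and without APC shRNA I (-0.09), and farther from it without NonS I (-0.46) and without APC shRNA II (-0.43).

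The other RGD-type subunits and ITGA2 were too low to test. ITGA2 (ENSG00000164171; chr5:52989326-53094779, plus strand), the collagen-binding alpha subunit, was at 9 and 8 in NonS and 10 and 4 in APC shRNA cells. ITGAV (ENSG00000138448; chr2:186590065-186680901, plus strand), the alpha partner of ITGB5, ITGB6 and ITGB8, was at 10 and 5 in NonS against 7 and 3 in APC shRNA cells. The values of both subunits overlapped between conditions, and ITGAV was below ITGB5 in every library on the deposited scale. ITGB6 (ENSG00000115221; chr2:160099666-160200313, minus strand), an epithelial subunit that helps to activate latent TGF-β, was at 5 and 4 in NonS and 4 and 2 in APC shRNA cells, and 966 of its exonic bases also belong to AC092153.1 on the same strand. ITGB8 (ENSG00000105855; chr7:20330702-20415754, plus strand), which also binds latent TGF-β, was at 2 and 1 in NonS and 1 and 1 in APC shRNA cells. ITGA5 (ENSG00000161638; chr12:54395261-54419460, minus strand), the fibronectin receptor's alpha subunit, was listed at 0 in all 4 libraries. These values are within a few units of the rounding step.

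Of the 5 subunits tested, 1 was called lower, ITGA6, beside the 3.7% of all genes. Both APC shRNA values lay below both NonS values for 4 of the 5 (all but ITGB5), where 27.5% of all genes tested did so and 33% lay wholly above. All 5 were lower in both same-numbered pairs, as were 36.9% of all genes tested. Among the 9 subunits above 0 it was 7, ITGA2 and ITGB8 being the exceptions. ITGAV and ITGB6, which are among the 7, differed by only a few units. The share of all genes above 0 was not worked out, so the 7 has no background beside it. The median log2 difference of the 5 was -0.63. They share the 4 libraries and are not independent of each other.

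**Figure D1:**
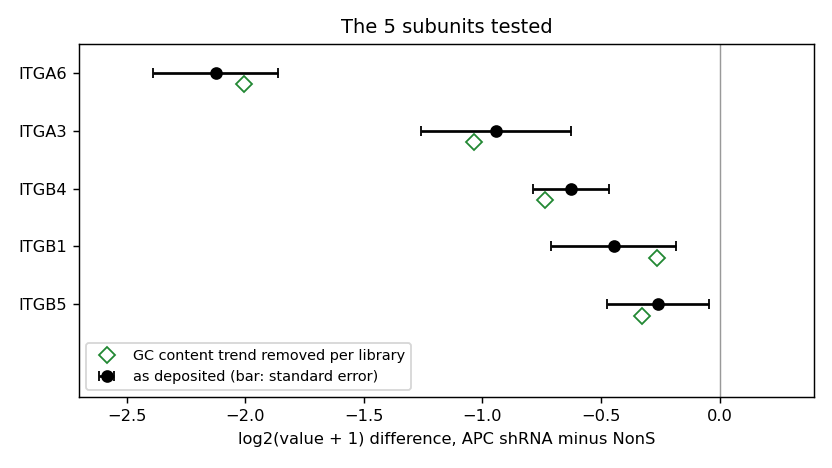
Log2(value + 1) difference, APC shRNA minus NonS (x axis), for the 5 subunits tested, with black points and standard error bars from limma on the deposited values and green diamonds after a trend with GC content was removed from each library. ITGA6 lies near -2 by either measure, ITGA3 near -1, and ITGB4, ITGB1 and ITGB5 between -0.8 and 0.

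Levels were also compared between subunits, on the deposited scale and again after division by the length of the longest transcript. In NonS cells 5 subunits formed an upper group with means of 79.5 (ITGB1), 73.5 (ITGA3), 71.5 (ITGB4), 71 (ITGB5) and 69.5 (ITGA6), and neighbours in this order overlapped. A wide gap separated them from ITGA2 (8.5), ITGAV (7.5) and ITGB6 (4.5), then ITGB8 (1.5) and ITGA5 (0). In APC shRNA cells ITGB1 and ITGB5 shared the top with a mean of 59, followed by ITGB4 (45.5), ITGA3 (37.5) and ITGA6 (15.5), and from ITGB5 down to ITGA6 both libraries of each subunit lay above both of the next. ITGA6 thus left the upper group and stood between it and ITGA2 (7). If the values are divided by transcript length once more, the same 5 subunits lead in NonS, in the order ITGB1, ITGB5, ITGA3, ITGA6 and ITGB4.

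The summed value of all 10 subunits was 359 and 415 in NonS libraries and 240 and 225 in APC shRNA libraries. The alpha subunits summed to 142 and 176 in NonS and to 67 and 63 in APC shRNA cells, whereas the beta subunits summed to 217 and 239 and to 173 and 162. The ratio of alpha to beta subunits was therefore 0.654 and 0.736 in NonS and 0.387 and 0.389 in APC shRNA libraries. ITGA6 made up 18.1% and 17.8% of the summed integrin value in NonS and 7.92% and 5.33% in APC shRNA cells. Laminin-receptor subunits other than ITGB1 (ITGA3, ITGA6 and ITGB4) held 51.5% and 58.8% of the sum in NonS and 39.6% and 45.3% in APC shRNA libraries. This share includes that of ITGA6, so it does not show a shift in the share of ITGA3 and ITGB4.

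Because the subunits act in pairs, the balance of partners within each library was examined as a ratio of value + 1. With 2 libraries against 2, the smallest p that an exact two-sided permutation test can give is 0.333, so these ratios describe the libraries only. The log2 ratio of ITGA6 to ITGB4 was 0.07 and -0.13 in NonS and -1.20 and -1.85 in APC shRNA cells, a difference of -1.50 (exact permutation p = 0.333). The hemidesmosome partners thus had nearly equal values in NonS cells, and ITGA6 was the lower of the pair in both APC shRNA libraries. The log2 ratio of ITGA6 to ITGB1 was -0.42 and 0.04 in NonS and -1.85 and -1.89 in APC shRNA cells, a difference of -1.68 (exact permutation p = 0.333). For ITGA3 to ITGB1 the difference was -0.49 and the conditions overlapped (exact permutation p = 0.667), and it ranged from -1.03 without APC shRNA II to 0.04 without APC shRNA I. The ratio of ITGA6 to ITGA3, chosen after the values were seen, was 0.16 and -0.26 in NonS and -0.68 and -1.79 in APC shRNA cells, so that ITGA6 was the lower laminin-binding alpha subunit in both APC shRNA libraries.

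The remaining pairs overlapped between the conditions. The difference in log2 ratio was 0.09 for ITGA2 to ITGB1, -0.08 for ITGAV to ITGB1, -0.26 for ITGAV to ITGB5, -0.02 for ITGAV to ITGB6 and -0.23 for ITGAV to ITGB8. Each of these 5 changed sign in at least 1 of the 4 recalculations that left out a library. Of the 8 ratios that could be formed, 2 did not overlap, and both share the numerator ITGA6. The share for ratios of other genes was not worked out, so this count has no background of its own. Of single genes tested, 27.5% lay wholly below and 33% wholly above. ITGA5 to ITGB1 was not formed, as ITGA5 is listed at 0.

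**Figure D2:**
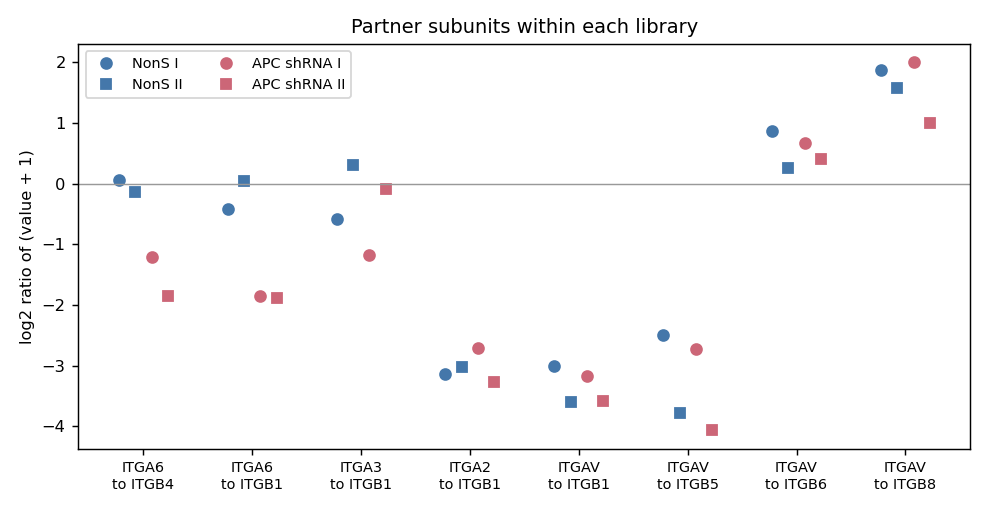
Log2 ratio of partner subunits (y axis, ratio of value + 1) within each of the 4 libraries, with 1 group of points for each pair (blue, NonS; red, APC shRNA; circle, replicate I; square, replicate II). For ITGA6 to ITGB4 and ITGA6 to ITGB1 every red point lies below every blue one, and in the other 6 pairs the conditions overlap.

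Most subunits differed between replicates in a direction that went with base composition, some of them by a single unit. The longest transcripts of ITGA3, ITGB4 and ITGB5 have 61.3%, 63.7% and 54.3% GC, and those of the 6 other subunits above 0 have between 37.8% (ITGB8) and 42.9% (ITGA6). The 3 GC-rich subunits were higher in replicate II than in replicate I in both conditions, by 0.61, 0.38 and 0.40 on the log2 scale in NonS and by 0.49, 0.03 and 0.34 in APC shRNA cells, where ITGB4 differed by a single unit. Of the 6 GC-poor subunits, 5 were lower in replicate II in NonS and 5 in APC shRNA cells. ITGA6 was the exception in NonS, with 65 in replicate I and 74 in replicate II, and ITGB8 was equal in both APC shRNA libraries. In NonS the shifts of ITGA2 (9 and 8), ITGB6 (5 and 4) and ITGB8 (2 and 1) were of a single unit, the rounding step. Across 5364 genes with a GC content, the Spearman correlation of the II minus I difference with GC content was 0.486 in NonS and 0.0776 in APC shRNA cells, and that of the APC shRNA minus NonS difference was 0.240. Across all genes the trend between replicates was thus weak in APC shRNA cells. These are correlations across genes of the same 4 libraries, and genes are not independent replicates.

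**Figure D3:**
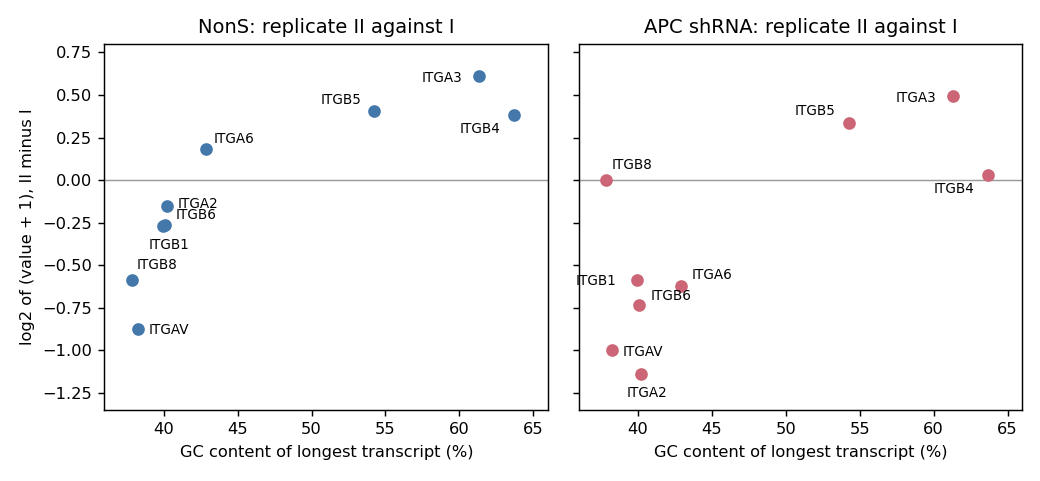
Difference between replicates II and I (y axis, log2 of value + 1) against the GC content of the longest transcript (x axis, %), with 1 point for each of the 9 subunits above 0, in NonS (left) and APC shRNA cells (right). ITGA3, ITGB4 and ITGB5 lie above 0 in both panels, and the GC-poor subunits lie below 0 apart from ITGA6 in NonS and ITGB8, at 0, in APC shRNA cells.

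The test was therefore repeated after a trend with GC content had been removed from each library. The trend was fitted to each library's deviation from the gene's mean over the 4 libraries. A trend with GC content between the conditions was thus removed too, whatever its origin. The p-values do not allow for this added fitting step. ITGA6 stayed at a log2 difference of -2.005 (adjusted p = 0.0167 in limma), and ITGB4 was then called as well, at -0.73 (adjusted p = 0.0259), in a fit in which 8.56% of all genes tested were called lower. With the replicate block and the GC correction together, 4 of the 5 subunits were called lower: ITGA6 (adjusted p = 0.00124), ITGA3 (adjusted p = 0.000428), ITGB4 (adjusted p = 0.00211) and ITGB5 (adjusted p = 0.0111). In that fit 24.5% of all genes tested were called lower. The correction took ITGA3 from -0.94 to -1.04 and ITGB5 from -0.26 to -0.33. ITGB1 moved the other way, from -0.45 to -0.26, and was not called.

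The 16 other integrin subunits, which are those of leukocytes, platelets, muscle and mesenchyme among others, were scarcely seen, and none reached the mean for testing. Only 3 were above 0: ITGA1, a collagen-binding alpha subunit, at 4 and 2 in NonS and 3 and 2 in APC shRNA cells, ITGAE at 2 to 3, and ITGB7 at 1 in every library. Among the subunits of leukocyte integrins, ITGAL, ITGAM, ITGAX and ITGB2 were listed at 0 throughout, whereas ITGAE and ITGB7 were not. ITGB3, of platelets, was listed at 0 as well.

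Proteins that work beside ITGA6 and ITGB4 in the hemidesmosome are PLEC and DST, which link them to keratins, the transmembrane collagen COL17A1 and the tetraspanin CD151. None of the 3 tested was called in limma on the values as deposited, where 3.7% of all genes tested were lower and 4.33% higher. COL17A1, named after its values were seen, was at 21 and 33 in NonS and 8 and 10 in APC shRNA cells. Its conditions did not overlap, and the log2 difference of -1.46 had an adjusted p of 0.0724 in limma. It was called with the replicate block (adjusted p = 0.0474) and under each of 3 other scalings of the libraries, median-of-ratios, upper-quartile and equal totals (adjusted p = 0.0462, 0.0322 and 0.0317 in limma). Of all genes tested, 9.3% were lower with the block, and 305, 349 and 369 genes were lower under these scalings. PLEC was at 45 and 57 in NonS and 44 and 43 in APC shRNA cells, and CD151 at 165 and 190 and at 150 and 168. CD151 overlapped between conditions, while PLEC did not, by 1 unit. DST was at 3 or less in all libraries.

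Of the 26 integrin activators and adhesion adaptors listed, 17 could be tested, of which, on the values as deposited, 2 rose and none fell, where 4.33% of all genes tested rose and 3.7% fell, and their median log2 difference was 0.14. FLNA, the actin crosslinker filamin A that binds beta subunit tails, was at 54 and 58 in NonS and 199 and 192 in APC shRNA cells, a 3.49-fold rise (log2 difference 1.79, standard error 0.07, adjusted p = 0.0423 in limma). ZYX, the focal adhesion protein zyxin, had a value of 37 in each NonS library, against 67 and 58 in APC shRNA cells (log2 difference 0.74, adjusted p = 0.0490 in limma). Both calls held with the replicate block, which added PARVA, an ILK-binding adaptor, as higher and FERMT1, the epithelial kindlin that activates integrins, as lower. PARVA was also called higher under each of the 3 other scalings, and TNS4, a tensin, was called lower with equal totals (adjusted p = 0.0419 in limma). Over all genes, 310, 336 and 343 were higher under median-of-ratios, upper-quartile and equal totals, and 369 were lower with equal totals. In the blocked fit 9.73% of all genes tested were higher and 9.3% lower. FERMT1 was at 42 and 37 in NonS and 30 and 27 in APC shRNA cells (adjusted p = 0.0905 in limma without the block and 0.0479 with it). TLN1, the talin that activates beta subunits, was at 31 and 30 in NonS against 37 and 35 in APC shRNA cells, and did not pass (adjusted p = 0.104 in limma).

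Of the 9 lateral membrane partners, tetraspanins and other proteins that bind integrins side by side, all were tested and none was called on the values as deposited. Of all genes tested 3.7% were lower and 4.33% higher on those values. With the block CD81 was higher and CD82 and PLAUR were lower, all named after their values were seen. In that fit 9.73% of all genes tested were higher and 9.3% lower. CD81 and CD82 were also called without the block under upper-quartile scaling (adjusted p = 0.0411 and 0.0457 in limma) and with equal totals (adjusted p = 0.0438 and 0.0484 in limma). Over all genes, 336 were higher and 349 lower under the former, and 343 and 369 under the latter. CD81 was at 58 and 71 in NonS and 107 and 138 in APC shRNA cells. CD82 was at 52 and 71 and at 27 and 35. These tetraspanins lay on opposite sides of 0, and the median of the 9 was -0.00 on the log2 scale. PLAUR, the urokinase receptor, was at 17 and 27 in NonS against 9 and 12 in APC shRNA cells.

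Ligands of the epithelial integrins were counted in the same way, beside 3.7% of all genes tested called lower and 4.33% called higher. Of 11 laminin chains 7 were above 0 and 3 were tested, LAMA5, LAMB1 and LAMB3, with none called. LAMA5, the alpha chain of the laminin that ITGA6 and ITGA3 receptors bind in the gut, was at 30 and 35 in NonS and 30 and 27 in APC shRNA cells. Of 10 collagen chains 2 were above 0, COL4A2 and COL6A1, both at 2 or less, and the fibrillar collagens COL1A1, COL1A2 and COL3A1, ligands of ITGA2 with ITGB1, were at 0. Of 16 RGD-type ligands 9 were above 0 and 3 were tested, with none called, and FN1 and VTN, the genes of fibronectin and vitronectin, were at 0 in every library. TGFB3, whose latent form carries the RGD motif, had the value 0 in each NonS library, against 16 and 17 in APC shRNA cells. It was named after its values were seen and fell short of the mean for testing.

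A separate list of 4 genes held 3 that encode laminin receptors other than integrins, of which none was called on the values as deposited, and LARGE2, which was called higher. Of all genes tested 4.33% were called higher. LARGE2, the enzyme that adds the laminin-binding glycan to dystroglycan and the study's own gene of interest in these samples, was at 2 and 1 in NonS and 27 and 32 in APC shRNA cells (log2 difference 3.63, adjusted p = 0.0423 in limma). BCAM, the Lutheran laminin receptor, named after its values were seen, was at 37 and 57 in NonS against 96 and 122 in APC shRNA cells. Its conditions were well apart, with an adjusted p of 0.0930 in limma. It was called with the replicate block (adjusted p = 0.0474), with upper-quartile scaling (adjusted p = 0.0481 in limma) and with equal totals (adjusted p = 0.0476 in limma). Of all genes tested, 9.73% were higher with the block, and 336 and 343 genes were higher under these scalings. DAG1, which encodes dystroglycan itself, overlapped between the conditions at 26 and 29 against 28 and 32, as did RPSA, the ribosomal protein also known as a laminin receptor. Of the 8 epithelial markers tested 1 fell, where 3.7% of all genes tested did. This was LGALS4, a lectin of differentiated colon cells, at 557 and 646 in NonS and 175 and 147 in APC shRNA cells (adjusted p = 0.0423 in limma). Whether the difference of ITGA6 went with that of LGALS4 was not tested.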

How the data were processed

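RNA-Seq of HT-29 cells in 2 conditions with 2 biological duplicates each was analysed, grouped by the sample labels. The authors filtered low-quality reads, trimmed polyA tails, mapped with TopHat2 to human assembly 38 and assigned reads to GENCODE v29 genes with htseq-count. The submitters' processing notes name hg19, bcl2fastq 2.19.0.316 and DESeq2 1.4.1, so the build is given in 2 ways. Positions here are GENCODE v29 on GRCh38, which holds 19502 of the 19729 gene IDs. Each library's deposited table gives whole numbers, taken here as a score of unstated scale: the variance between replicates was below that of read counts, at 0.474 (NonS) and 0.345 (APC shRNA) of the Poisson expectation, and values times transcript length in kb summed to between 980841 and 984873. Hence no count model was run. A deposited comparison table (mean, log2 fold change, fold change, adjusted p) was not used, and 0 columns of per-sample values were left out.

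The score was compared as log2(value + 1) with limma 3.58.1 in R 4.3.3 (mean-variance trend, mean of at least 10). The GC trend was a loess with a span of 0.5. Ratios were tested in Python 3.11.15 with scipy 1.17.1. The script was tested on simulated data. The design text says the experiment was repeated, and I minus II differences correlated between conditions (0.724 across 5376 genes), so the numbers were taken to pair the libraries. Alternatives cover scaling, pseudocount, filter, moderation, block, GC content and each library left out. All members are named. From other lists the called genes are named, and the others where stated. The members and lists were chosen with earlier results of these data known. P-values in limma rest on the spread between the 2 libraries of each condition, moderated with the spread of all genes tested. With the block they rest on the spread left after the replicate number is fitted. No depth or counting interval can be given.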

Additional observations from a re-analysis of the deposited data

How the results depend on the processing

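The 5 subunits tested had a lower value in APC shRNA cells under every alternative run, but ITGB5 came to -0.06 without NonS II and ITGB1 to -0.15 without APC shRNA II on the log2 scale. The call of ITGA6 (log2 difference -2.13) was lost with every gene of a total of at least 1 tested (adjusted p = 0.0714 in limma), with at least 10 in every library (0.05003), with the replicate block (-2.13, adjusted p = 0.0561), and without any 1 library (-2.44 to -1.81). The number of subunits called lower, 1, was 0 under both filters and without any 1 library, 2 after GC content correction and 4 when this was joined to the replicate block. The block alone also gave 1, but ITGA3 in place of ITGA6, and changed no other subunit's call. Over all genes, 233 were higher and 199 lower. Calls rose on both sides under the other scalings, to 310 higher and 305 lower with median-of-ratios, 336 and 349 with upper-quartile scaling and 343 and 369 with equal totals. Higher and lower calls were 952 and 515 with a total of at least 1, 368 and 352 with robust moderation, 523 and 500 with the replicate block, 464 and 459 with GC content correction and 1280 and 1316 with both. With at least 10 in every library 139 were higher. Without any 1 library, where the lone library of a condition is assumed to vary like the others, they were 0 and 0. Rounding to whole numbers limits ITGA2, ITGAV, ITGB6 and ITGB8, and the limit of detection of ITGA5 is unknown because read depth is.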
